A study of Homo sapiens with 4 samples.

Results

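The cytosolic ribosome is built from ribosomal RNA and from a fixed set of proteins, one copy of most of them per particle. The genes of these proteins were followed here in the established ovarian cancer line OVCAR8, with FAM49B (also called CYRIB) targeted or not. Members were chosen by name from the protein-coding genes of the deposited table: names starting with RPL or RPS and a digit, RPLP0 to RPLP2 and RPSA, without the RPS6 kinases, RPS19BP1, RPL7L1 and hyphenated read-through genes. This gave 86 of 58735 genes, 52 of the large and 34 of the small subunit.

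RNA-seq was done on 2 groups of 2 libraries. In shCON the cells were labelled wild type and carried a scrambled short hairpin in a GIPZ lentiviral vector. In shFAM49B they carried hairpins of the same vector type against FAM49B. The treatment notes describe transient lipofection of both plasmids and harvest at 36 h, while the design text calls the knockdown stable. The sources used here do not give hairpin sequences, selection or the number of clones. FAM49B stood at 7.41 and 7.60 FPKM in shCON and at 1.06 and 1.02 FPKM in shFAM49B. FPKM are reads per kilobase of gene, scaled to depth. The reads behind the values came to 15639559 to 16875353 per library.

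Of 10 genes fixed as markers of high-grade serous ovarian carcinoma, 5 had a mean of at least 1 FPKM, led by the keratins KRT8 and KRT18. PAX8, MUC16, KRT7 and MSLN stayed at or below 0.232 FPKM in every library, and SOX17 was listed at 0. The summed level of the 10 markers was 75.3 to 78.5 FPKM in shCON and 65.5 to 65.6 in shFAM49B. Of the 5 that were tested, 3 (MECOM, KRT18 and EPCAM) were called lower, beside 15.8% of all tested genes. Of 6 fibroblast markers 1, COL1A1, had a mean of at least 1 FPKM, and of 4 endothelial markers none did. The summed level of 6 leukocyte markers was 1.13 to 1.77 FPKM. Of 10 markers of basal and squamous epithelium, a list chosen after values were seen, 8 were tested. All 8 were called lower, beside the same 15.8% of all tested genes. Their summed level was 561 and 494 FPKM in shCON and 33.7 and 36.3 FPKM in shFAM49B. KRT5, a keratin of basal cells, measured 219 and 194 FPKM in shCON and 13.3 and 13.6 in shFAM49B, and KRT6A 96.1 and 81.7 against 2.72 and 4.04. The part of these marker differences in the results that follow was not tested.

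Ribosomal protein mRNAs are among the most abundant of a growing cell and are long lived. Most start with a cytosine and a run of pyrimidines, the terminal oligopyrimidine (TOP) motif, through which the kinase mTORC1 and the protein LARP1 set their translation and stability. Several members have a paralog, a second gene for a closely related protein, which may be used in particular tissues.

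Nearly all core ribosomal protein genes rose together in shFAM49B, by a similar factor, while most paralogs did not pass the test. Of 77 members that are no paralog, 76 were higher, with folds of mean FPKM from 1.12 to 2.14 and a median of 1.73. Both shFAM49B libraries lay above both shCON libraries for all 77. Of 5 tested paralogs, 2 were higher, by 1.48-fold and 1.33-fold. The tested paralogs had a median level of 38.3 FPKM and the core members one of 260 FPKM. The part of this gap in level in the contrast between core members and paralogs was not tested. Counted over both kinds, 78 of 82 tested members were higher and none lower, against 26.4% of all tested genes called higher and 15.8% called lower (limma on log2(FPKM + 1), Benjamini-Hochberg over the 13775 genes whose mean reached 1 FPKM, adjusted p under 0.05). All 82 tested members had a positive log2 difference, so none could be called lower at any p threshold. The alternative voom, which models read counts, called 78 higher and 0 lower, beside 32.2% of all genes called higher. Its counts were recovered from the same FPKM. Its trimmed-mean factors (1.08, 1.09, 0.934 and 0.91) were close to the factors already in the deposited values (1.08, 1.10, 0.941 and 0.919). It therefore repeats nearly the same scaling and is no separate check of it. No overlap between the groups, with shFAM49B above, was seen for 80 of 82 members and for 43.1% of all tested genes. Whether the libraries came from separate cultures is not in the labels. The p-values therefore cover only how these 4 samples vary, and that variation may be technical. In bulk RNA, more RNA of a gene per cell and more cells that express it cannot be told apart.

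**Figure D1:**
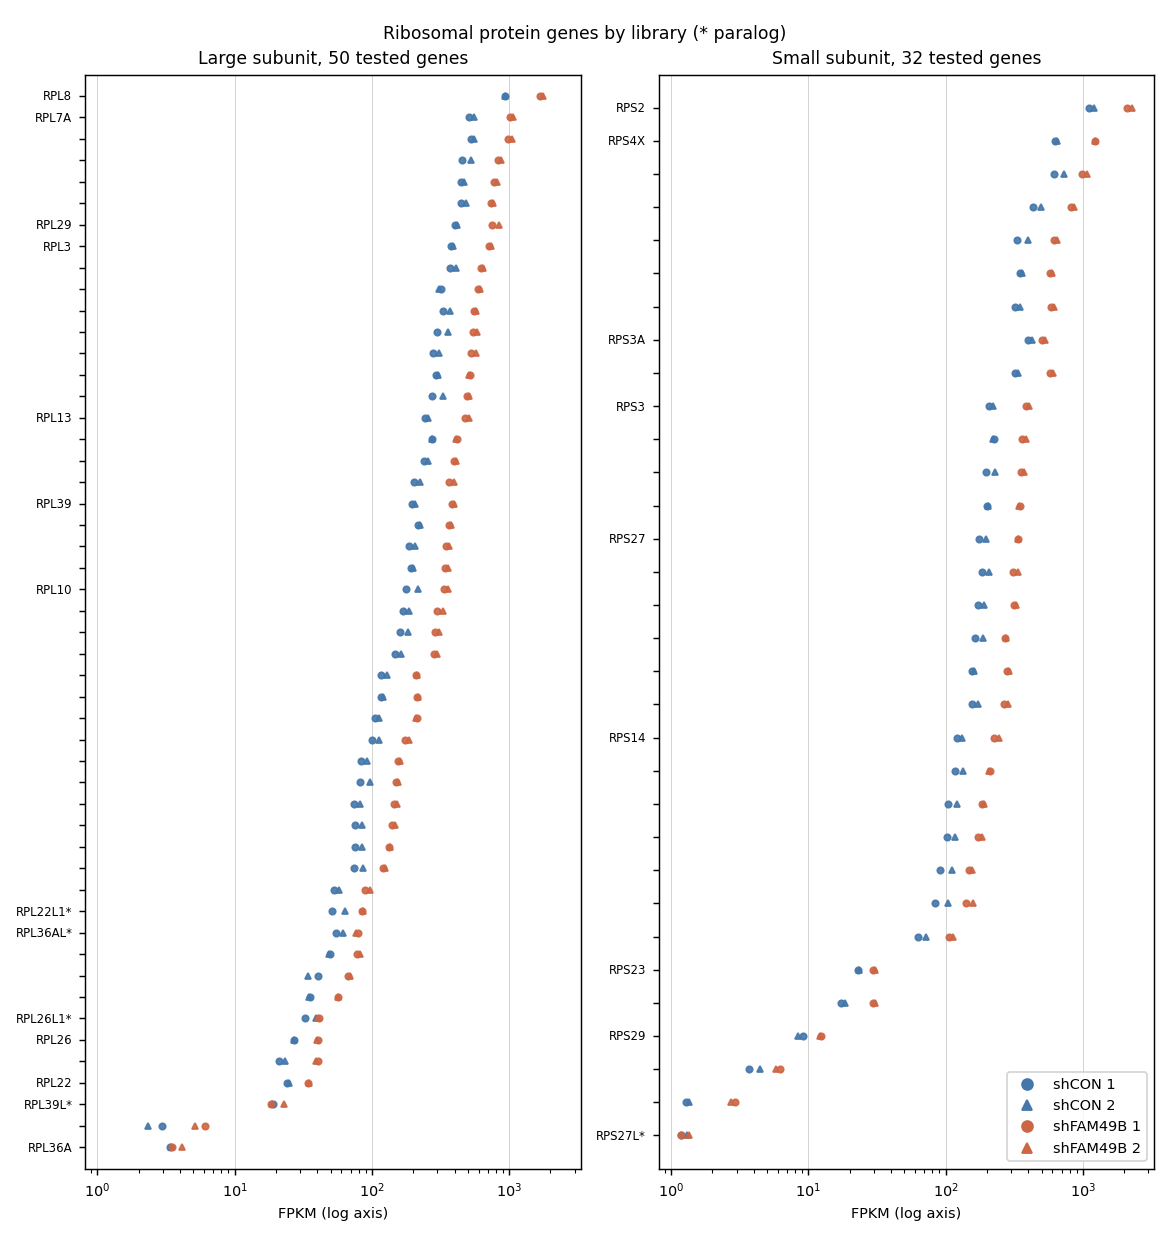
FPKM (log axis) of the 82 tested ribosomal protein genes in each library, by subunit and sorted by mean level. Circles and triangles are the libraries of each group. For 80 genes both shFAM49B points lie to the right of both shCON points. Names are given for the paralog pairs and for the largest and smallest differences and highest levels of each subunit, and asterisks mark paralogs.

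The median log2 difference of members (shFAM49B minus shCON, on log2(FPKM + 1)) was 0.77, against 0.05 for all tested genes. Between their quartiles the members ran from 0.69 to 0.86, a width of 0.16, where all tested genes had a width of 0.51. Most members changed by nearly the same factor: 68 of 82 had a fold between 1.5 and 2, 12 were under 1.5, and 2 were above 2. The order of levels was kept, with a correlation across the 82 genes of 0.996 between the log2 mean levels of shCON and shFAM49B. These genes share libraries and scaling, so this is a description.

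**Figure D2:**
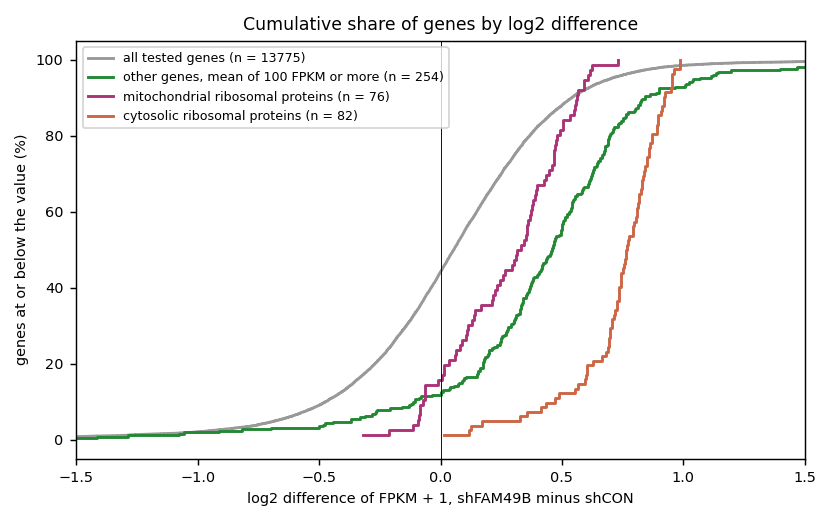
Cumulative share of genes (%) by log2 difference of FPKM + 1, for all tested genes, other genes of at least 100 FPKM, mitochondrial ribosomal proteins and cytosolic ribosomal proteins. The cytosolic ribosomal protein curve rises steeply near its median of 0.77, to the right of the others.

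The 2 members with the highest level of the large subunit were RPL8 and RPL7A. RPL8 (ENSG00000161016) binds ribosomal RNA close to the peptidyl transferase centre. It measured 930.4 and 928.8 FPKM in shCON and 1673 and 1774 FPKM in shFAM49B. The shCON libraries were alike and both lay far below the shFAM49B libraries (1.85-fold, log2 difference 0.89 ± 0.07 SE, limma adjusted p = 0.00174). RPL7A measured 506 and 550.2 FPKM in shCON and 1021 and 1072 in shFAM49B, 1.98-fold higher (log2 difference 0.99). With RPL13 it had the largest log2 difference of the subunit.

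RPL13 measured 242.6 and 258.3 FPKM in shCON and 479.9 and 514.2 in shFAM49B (1.98-fold). RPL29 stood at 400.4 and 415.1 FPKM in shCON and at 750.5 and 842 in shFAM49B (1.95-fold). RPL39, one of the smallest ribosomal proteins, which lines the exit tunnel, went from 195.8 and 206.5 FPKM to 386.2 and 394.9 (1.94-fold). For all of these the gap between the groups was larger than the gap between libraries of a group. They were named for their large log2 differences, so this gap adds no further evidence.

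Other large-subunit genes with a named place in the particle had nearly equal changes. RPLP0, RPLP1 and RPLP2 form the stalk that recruits elongation factors, and rose 1.75-fold, 1.73-fold and 1.75-fold. RPL5 and RPL11 form with 5S RNA the particle that binds MDM2 when assembly fails, and rose 1.71-fold and 1.68-fold. RPL5 measured 293.4 and 304.6 FPKM in shCON and 514.5 and 506.5 in shFAM49B. RPL11 measured 216.1 and 224 against 363.7 and 374.5 FPKM. RPL3 and RPL4, proteins of the large subunit core, rose 1.89-fold and 1.94-fold.

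In the small subunit RPS2 had the highest level of all members. RPS2, a protein near the mRNA entry site, measured 1103 and 1203 FPKM in shCON and 2104 and 2278 in shFAM49B (1.90-fold, log2 difference 0.93 ± 0.08 SE, limma adjusted p = 0.00219). RPS4X (ENSG00000198034), encoded on the X chromosome, measured 623.6 and 648 FPKM in shCON and 1219 and 1234 in shFAM49B. At 1.93-fold it had the largest log2 difference of the subunit (0.95). RPS14, which lies at the platform, rose from 120.1 and 132.2 FPKM to 226.7 and 244.7 (1.87-fold). RPS3, at the mRNA entry, rose from 206.7 and 219.7 FPKM to 386.1 and 406.5 (1.86-fold). RPSA, whose protein is also known as the laminin receptor precursor, rose 1.80-fold, and RPS6, the substrate of the S6 kinases, 1.67-fold.

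A few core members of the small subunit changed less. RPS3A measured 399.4 and 425.3 FPKM in shCON and 506.2 and 529.9 in shFAM49B (1.26-fold, log2 difference 0.33, limma adjusted p = 0.0139). After quantile normalization the RPS3A log2 difference was -0.34 and was called lower, and it did not pass as TPM (0.09) or relative to recovered reads (0.10). It also missed the threshold without a filter on low values (0.33), and when shCON replicate 1 (0.28) or either shFAM49B library (0.36 without replicate 1, 0.30 without replicate 2) was left out. RPS23, which sits at the decoding centre, measured 22.97 and 23.31 against 29.37 and 30.34 FPKM (1.29-fold) and did not pass as TPM (0.12) or relative to recovered reads (0.14). RPS29 measured 9.14 and 8.44 against 12.31 and 12.12 FPKM (1.39-fold) and did not pass as TPM (0.23). Each of these 3 genes had both shFAM49B libraries above both shCON libraries as deposited, as did 43.1% of all tested genes.

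Both subunits moved nearly alike. Of 50 tested large-subunit genes 47 were higher, with a median log2 difference of 0.80, and of 32 small-subunit genes 31 were higher, with a median of 0.73. Without paralogs 45 of 46 and 31 of 31 were higher, with median folds of 1.75 and 1.67. The summed FPKM of the large subunit over that of the small subunit was 1.41 and 1.38 in shCON and 1.44 and 1.43 in shFAM49B. The groups did not overlap, but they differed by only 1.03-fold (exact 2-sided permutation p = 0.333, the smallest that 2 libraries against 2 allow).

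Ribosomal protein genes took a larger part of the measured RNA in shFAM49B. Their share of the summed FPKM of all genes was 6.78% and 7.48% in shCON and 10.5% and 10.6% in shFAM49B. The mean was 7.13 ± 0.497% (SD, n = 2) in shCON and 10.6 ± 0.126% (SD, n = 2) in shFAM49B, 1.48-fold higher (exact 2-sided permutation p = 0.333, the smallest possible). The large subunit took 4.15 ± 0.263% and 6.22 ± 0.0674%, and the small subunit 2.98 ± 0.234% and 4.33 ± 0.0585%. A share needs no scaling between libraries. Counted in recovered reads, the share was 5.32% and 5.83% in shCON and 8.35% and 8.53% in shFAM49B. Without RPS2, RPL8 and RPS4X, the 3 members of highest level, it was 6.04 ± 0.451% and 8.81 ± 0.0948% of FPKM.

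**Figure D3:**
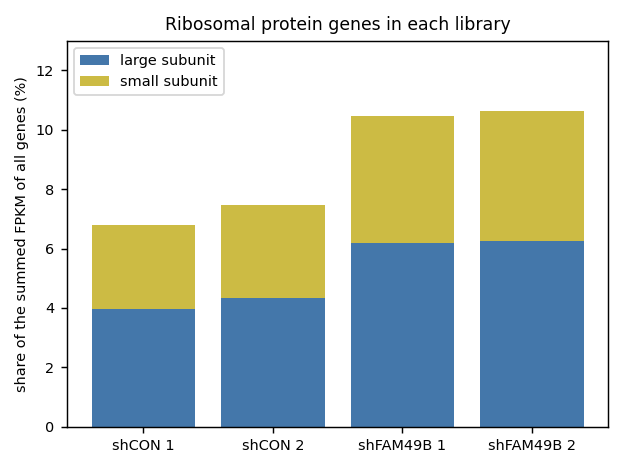
Share (%) of the summed FPKM of all genes taken by ribosomal protein genes in each library, stacked by subunit. The shFAM49B bars reach 10.5% and 10.6%, the shCON bars 6.78% and 7.48%.

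The other parts of the RNA did not all change in the same way. Genes of the mitochondrial genome took 19.9% and 18.2% of FPKM in shCON and 15.7% and 15.96% in shFAM49B, with summed levels of 47434 ± 3460 and 46820 ± 1530 FPKM. Single genes within that sum changed in both directions, for example MT-RNR2 by 1.63 and MT-ND2 by -1.41 on the log2 scale. All other nuclear genes together took 73.4% and 74.4% against 73.8% and 73.4%. The summed FPKM of all genes was 249490 ± 2520 in shCON and 295650 ± 6460 in shFAM49B, since the deposited values are scaled by a factor between libraries.

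Ribosomal protein genes also varied between the shCON libraries. Of the 82 tested members 71 were higher in shCON replicate 2 than in replicate 1, with a median ratio of 1.10, while other tested genes had a median ratio of 0.992. The corresponding median between the shFAM49B libraries was 1.04. The lower shFAM49B library over the higher shCON library had a median ratio of 1.59 over members.

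Level moved with the difference between groups in all genes, and gene length did so little. Other tested genes of the highest level decile (from 30.1 FPKM) had a median log2 difference of 0.32, and 62.9% of them were called higher. The 72 members in that decile had a median of 0.79. Over the 82 tested members, log2 mean level and log2 difference had a correlation of 0.617, against 0.235 over other tested genes. The 254 other genes of at least 100 FPKM had a median of 0.46, with 198 called higher and 18 lower. Other tested genes of the shortest length quartile had a median of 0.08 and of the longest 0.02, where members had 0.74 and 0.69. Of the 50 genes with the highest mean FPKM, 15 were members, and of the 100 highest, 40. The part of level in the result was not tested.

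Levels of the 82 tested members ranged from 1.26 to 1670 mean FPKM and depend on the annotated length. Length here is the union of all annotated exons, which for RPS29 is 9845 bases while its shortest main transcript has 296. RPS10 and RPL17 were among the lowest members. RPS10 shares 39.4% and RPL17 32.7% of its exon length with other genes on its strand, among them the read-through genes RPS10-NUDT3 and RPL17-C18orf32. The read-through genes were listed at 0 apart from RPL17-C18orf32 in shFAM49B replicate 1 (0.0427 FPKM). RPS10 measured 1.28 and 1.35 FPKM in shCON and 2.90 and 2.72 in shFAM49B, and RPL17 2.93 and 2.32 against 6.08 and 5.18. Their folds of 2.13 and 2.14 were the 2 above 2-fold. Values of both genes are uncertain, with 51 to 230 reads per library.

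Near-identical copies make many members uncertain. The table holds 1132 pseudogenes named for 76 of the 86 members, which arose mostly by retrotransposition of their mRNAs. Their summed level was 3850 and 3934 FPKM in shCON and 6916 and 6962 in shFAM49B, 1.78-fold higher. Pseudogenes named for RPS2 summed to 897.6 and 862.6 FPKM in shCON and to 1905 and 1929 in shFAM49B, close to RPS2 itself. The sources used here do not say how reads with several matches were counted. RPL28 is the only core member with no pseudogene named for it. It measured 75.9 and 84.6 FPKM in shCON and 139.1 and 147.3 in shFAM49B (1.78-fold, limma adjusted p = 0.00219).

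Of the 5 tested paralogs, 3 did not pass while their core genes rose. RPL39L, a paralog of RPL39 known from testis and from tumour cells, measured 19.1 and 18.7 FPKM in shCON and 18.3 and 23.1 in shFAM49B (log2 difference 0.12, limma adjusted p = 0.428), and the groups overlapped. RPL39L made up 8.88% and 8.29% of the pair's FPKM in shCON and 4.53% and 5.52% in shFAM49B. Pseudogenes named for RPL39 summed to 571.6 and 594.4 FPKM in shCON and to 1045 and 1038 in shFAM49B, above RPL39 itself. The level of RPL39 and this share are therefore uncertain. RPL26L1 measured 32.8 and 39.4 FPKM in shCON and 40.9 and 40.2 in shFAM49B (log2 difference 0.17, adjusted p = 0.198), while RPL26 rose from 27.0 and 27.0 to 40.3 and 39.8 (1.48-fold). The RPL26L1 share of the pair was 57.1 ± 3.16% (SD, n = 2) in shCON and 50.3 ± 0.0674% (SD, n = 2) in shFAM49B. RPL26L1 passed without shCON replicate 2 (log2 difference 0.30).

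RPS27, the core gene of the paralog RPS27L, rose from 174.5 and 197.4 FPKM to 336.9 and 338.5 (1.82-fold). RPS27L measured 1.19 and 1.30 FPKM in shCON and 1.19 and 1.35 in shFAM49B (log2 difference 0.01, adjusted p = 0.949). RPL22L1 did rise with RPL22: 51.4 and 63.6 against 84.0 and 86.3 FPKM (1.48-fold), where RPL22 had 23.9 and 25.01 against 34.5 and 34.9 (1.42-fold). The RPL22L1 share was 70.0 ± 2.50% (SD, n = 2) in shCON and 71.1 ± 0.218% (SD, n = 2) in shFAM49B, and these overlapped. RPL22L1 did not pass as TPM (0.33), relative to recovered reads (0.34), after quantile normalization (0.22), without a filter on low values (0.57), or without either shFAM49B replicate (0.59 and 0.55).

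In 3 of the 5 pairs, RPL22, RPL26 and RPL36A, the paralog had a higher FPKM than the core gene in every library. For RPL26 this order depends on the length used. By main transcript length the mean level was 159.6 for RPL26 and 65.7 for RPL26L1, so the RPL26L1 share depends on it too. RPL22 and RPL36A stayed below their paralogs by that length (66.6 against 75.8, and 33.4 against 68.3). RPL36AL measured 55.1 and 62.0 FPKM in shCON and 79.4 and 76.9 in shFAM49B (1.33-fold, adjusted p = 0.0101), and RPL36A, which overlaps a read-through gene over 8.40% of its exons, 3.39 and 3.42 against 3.504 and 4.13 FPKM (1.12-fold, adjusted p = 0.332). RPL36A was the only core member that did not pass. RPL36AL did not pass as TPM (0.17), relative to recovered reads (0.19), after quantile normalization (0.09) or without either shFAM49B replicate (0.39 and 0.44).

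Of 5 pairs compared, the paralog's share was lower without overlap in 3 (RPL26, RPL39 and RPS27), higher without overlap in RPL36A and overlapping in RPL22. The exact 2-sided permutation p was 0.333 for the 4 pairs without overlap, the smallest possible, and 0.417 after adjustment over 5 pairs, and it was 1 for RPL22. RPL3L, a striated-muscle paralog, stayed under the filter at 0.516, 0.784, 0.851 and 0.896 FPKM. RPL10L, RPS4Y1 and RPS4Y2 had no read in any library. A count of 0 allows up to 3 reads, or 0.247 FPKM for RPL10L, 0.0881 for RPS4Y1 and 0.253 for RPS4Y2 (counting error only).

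**Figure D4:**
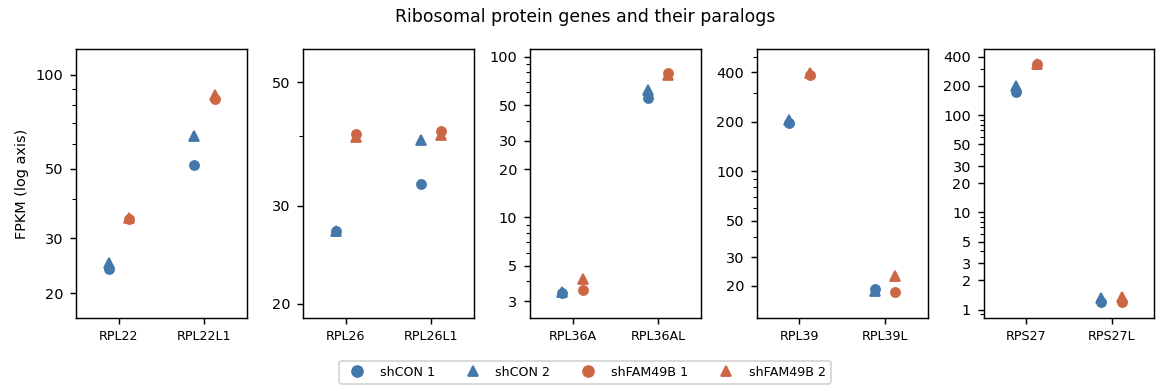
FPKM (log axis, a range of its own in each panel) of 5 core genes and their tested paralogs in each library. The shFAM49B points of RPL39 and RPS27 lie above the shCON points, while those of RPL39L and RPS27L overlap them.

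Sequences at the start of transcription are shown for members with large and small differences and for the paralog pairs. RPS2 and RPL39L had no matched start site and are not shown. They run from 35 bases before the RefSeq start to 15 bases from it (GRCh38.p14, 5′ to 3′ on the gene's strand). Capitals mark a C within 5 bases of the start followed by at least 4 of C or T, up to the end of the run or of the window. The core genes RPL26 (chr17:8383179-8383228, minus), RPS27 (chr1:153990727-153990776, plus), RPL39 (chrX:119791616-119791665, minus) and RPL22 (chr1:6199581-6199630, minus) have a run. Of the members with the largest log2 differences, RPL7A (chr9:133348183-133348232, plus) and RPL39 have one, while RPL13 (chr16:89560622-89560671, plus) and RPS4X (chrX:72277234-72277283, minus) have none. RPS3A (chr4:151099593-151099642, plus) and RPS23 (chr5:82278340-82278389, minus), among the smallest, both have one. RPL26L1 (chr5:172958694-172958743, plus) and RPS27L (chr15:63157463-63157512, minus), which did not pass, have none, and RPL36A (chrX:101390976-101391025, plus), which did not pass either, has one. RPL22L1 (chr3:170870181-170870230, minus) and RPL36AL (chr14:49620612-49620661, minus), which rose, have one.
RPL7A: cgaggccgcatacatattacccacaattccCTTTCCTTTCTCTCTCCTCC
RPL13: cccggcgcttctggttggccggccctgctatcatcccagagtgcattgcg
RPS4X: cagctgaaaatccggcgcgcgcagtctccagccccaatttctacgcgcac
RPS3A: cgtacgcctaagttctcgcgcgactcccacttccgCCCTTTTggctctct
RPS23: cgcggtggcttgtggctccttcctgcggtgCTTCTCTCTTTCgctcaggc
RPL39: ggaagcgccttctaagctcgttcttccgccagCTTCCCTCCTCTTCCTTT
RPL26: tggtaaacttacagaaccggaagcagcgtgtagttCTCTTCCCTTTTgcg
RPL26L1: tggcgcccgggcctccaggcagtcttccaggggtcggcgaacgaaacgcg
RPS27: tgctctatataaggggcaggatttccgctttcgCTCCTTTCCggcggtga
RPS27L: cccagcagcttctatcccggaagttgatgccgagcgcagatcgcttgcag
RPL22: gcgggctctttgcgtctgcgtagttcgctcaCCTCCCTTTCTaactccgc
RPL22L1: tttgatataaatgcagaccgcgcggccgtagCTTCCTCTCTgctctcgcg
RPL36A: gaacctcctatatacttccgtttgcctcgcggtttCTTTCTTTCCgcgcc
RPL36AL: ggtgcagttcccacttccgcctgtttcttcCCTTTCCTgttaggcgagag

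Start sites were matched by symbol for 69 of the 86 members. A pyrimidine run of this kind was present at 50 of 62 matched core members (80.6%), at 2 of 4 matched tested paralogs, and at 21.1% of 27305 RefSeq promoters. The run was 5 to 22 bases long in core members, with a median of 11. Core members with a run had a median log2 difference of 0.77 (n = 50) and those without one 0.78 (n = 12). In the 300 bases from 250 before to 50 after the start, the ETS-type word CCGGAAG was found on either strand in 33.9% of core members and 10.7% of all promoters, the YY1-type word ATGGCG in 33.9% and 11%, the GC box GGGCGG in 54.8% and 44.6% and the TATA box TATAAA in 8.06% and 12%. A match describes these letters only.

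The remaining ribosome-linked genes were read from lists chosen with earlier results known. FAU encodes a ribosomal protein fused to a ubiquitin-like protein and falls outside the name rule. FAU measured 106.4 and 118.7 FPKM in shCON and 183.4 and 185.1 in shFAM49B. It was 1.64-fold higher (limma adjusted p = 0.00253), within the range of the members. RACK1, a protein of the small subunit with a name of its own, rose 1.76-fold, from 283.8 and 291.9 to 487.8 and 525 FPKM.

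Of 14 tested genes of translation elongation, 9 were higher and none lower (median log2 difference 0.43). EEF2, the translocase, rose from 1647 and 1507 FPKM to 3033 and 3301 (2.01-fold), EEF1A1, which delivers aminoacyl-tRNA, rose 1.601-fold, and TPT1 1.75-fold. GTPBP1 rose 1.84-fold. EEF2 and EEF1A1 did not pass without a filter on low values. Of 37 initiation genes, 22 were higher and 3 lower (median 0.34). Of all tested genes 26.4% were higher and 15.8% lower. The median levels of the elongation and initiation lists, 45.8 and 45.1 FPKM, lie in the highest level decile. In that decile 62.9% of non-members were higher and 7.96% lower. EIF4B and EIF4A2, which take part in the unwinding of mRNA leaders, rose 2.03-fold and 1.99-fold, and EIF3G 1.90-fold. EIF5 measured 35.4 and 37.1 FPKM in shCON and 19.1 and 18.1 in shFAM49B and fell by 0.92 on the log2 scale.

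Of 45 tested genes of ribosome assembly and ribosomal RNA processing, 19 were higher and 5 lower, with a median of 0.17. Of all tested genes 26.4% were higher and 15.8% lower. The median level of the list was 27.1 FPKM. In the level decile from 16.96 to 30.1 FPKM, 43.3% of non-members were higher and 12.4% lower, also with a median of 0.17. NOP53 rose 1.98-fold, the endonuclease NOB1 1.83-fold, the methyltransferase FBL 1.53-fold and NPM1 1.33-fold. NPM1 turned to -0.26 after quantile normalization and did not pass without shFAM49B replicate 2 (0.39) or without a filter on low values. Of 10 tested chaperones and ribosome-bound partners, RACK1 among them, 7 were higher and none lower (median 0.27), with BTF3 and NACA, the subunits of the nascent-chain complex, rising 1.54-fold and 1.52-fold. The median level of this list, 22.1 FPKM, lies in the same decile, so the same shares stand beside its counts. PDCD2L rose 1.26-fold (adjusted p = 0.0197), but did not pass under 8 of 14 alternatives, leaving out any 1 library among them (log2 differences 0.25 to 0.34).

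Of 76 tested mitochondrial ribosomal protein genes, 45 were higher and 1 lower, with a median of 0.32 against 0.77 for the cytosolic set. Of all tested genes 26.4% were higher and 15.8% lower. Their median level was 18.7 FPKM, in a level decile where 43.3% of genes outside the cytosolic set were higher and 12.4% lower. MRPL37 rose 1.66-fold, MRPS15 1.57-fold, MRPL44 1.51-fold and MRPS27 1.47-fold. Of 24 tested regulators of ribosomal protein mRNA translation and mTORC1, 9 were higher and 4 lower (median 0.04), beside 26.4% and 15.8% of all tested genes. The median level of these regulators was 16.8 FPKM, in a level decile where 34.9% of non-members were higher and 15.6% lower. MYC, which activates ribosomal genes, measured 77.4 and 83.3 FPKM in shCON and 120 and 121 in shFAM49B (1.5-fold). DEPTOR, an inhibitor of mTOR, rose from 2.96 and 2.78 to 5.99 and 6.93 FPKM (2.25-fold). SESN2 and DDIT4, stress-induced inhibitors of mTORC1, fell by 1.34 and 0.56 on the log2 scale.

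The size of the difference depended on the scaling, and so did the direction of a few members. Under TPM scaling, and also when scaled to recovered reads, 78 of 82 members had a positive log2 difference, RPL36A and the paralogs RPL26L1, RPL39L and RPS27L being negative. After quantile normalization 76 had one, and RPS12, RPS3A, RPL35, RPL7, RPL26L1 and RPL39L were negative. As TPM, where each library sums to the same total, the median of members was 0.53 and that of all genes -0.17. Relative to recovered reads these were 0.54 and -0.13. The gap between members and all genes was 0.71 as deposited, 0.70 as TPM and 0.67 relative to recovered reads, but 0.24 after quantile normalization. As TPM 72 of 82 members were higher, beside 11.6% of all genes, and relative to recovered reads 73, beside 12.5% higher and 30.3% lower of all genes. As TPM 31.7% of all genes were lower. After further median-ratio scaling 78 were higher, beside 21.2% higher and 19.2% lower of all genes. After quantile normalization, which gives every library the same distribution of values, the members' median was 0.26 and that of all genes 0.02. Of the members 53 were higher and 1, RPS3A, lower, beside 19.2% of all genes higher and 17.8% lower. RPL5, RPL11, RPLP1, RPS6 and RPL10 were among those that did not pass there, as were the non-members RACK1 (0.06) and MRPL37 (0.27).

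**Figure D5:**
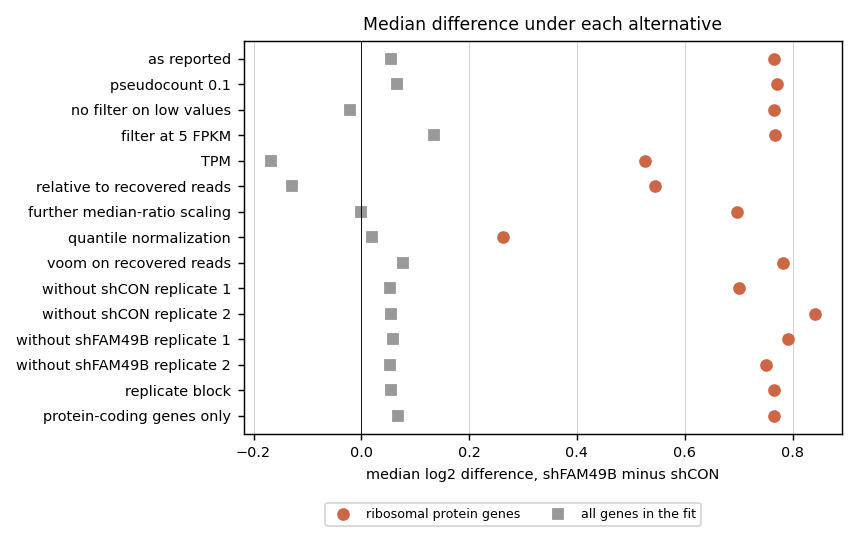
Median log2 difference (shFAM49B minus shCON) of ribosomal protein genes (circles) and of all genes in the fit (squares) under each alternative. Circles lie between 0.26 and 0.84 and squares between -0.17 and 0.13.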

How the data were processed

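RNA was sequenced from 2 shCON and 2 shFAM49B libraries of OVCAR8, prepared with a NEBNext Ultra kit from total RNA, per the labels' protocols. The deposited table holds FPKM, per the file name, with gene length and biotype, per the file headers. No aligner or counter is named (not given in the sources used here). Mouse builds, GRCm38 and mm10, stand in the submitters' processing notes, while all 58735 identifiers are human and in GENCODE release 29, and 58724 gene lengths equal the union of its exons, so coordinates are on GRCh38. FPKM times length was a whole multiple of 1 step per library for 100% of values (tolerance 0.001 of a step), which gave the recovered reads. The total by which FPKM had been scaled exceeded the recovered reads in shCON (1.08 and 1.10 times) and fell short of them in shFAM49B (0.941 and 0.919), so the deposited FPKM carry a between-library factor. At this depth 3 reads in a gene of 1 kb equal 0.162 to 0.200 FPKM, and tested members had 51 to 82243 reads.

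The test used limma 3.58.1 (R 4.3.3) and log2(FPKM + 1) of the deposited values, with moderation along the mean-variance trend, 2-sided, for the 13775 genes whose mean reached 1 FPKM. Residual degrees of freedom were 2, with a prior of 3.32. It was tested on simulated reads. A log2 difference on this scale understates the change of low genes, and folds are ratios of mean FPKM. Shares, ratios and pairs were compared with exact permutation tests in scipy 1.17.1. Alternatives were other pseudocounts, filters, scalings, voom with trimmed-mean factors, a replicate block and leaving out each library. Genes named are the 4 largest and 4 smallest log2 differences and the 2 highest levels of each subunit, members that did not pass, paralogs, FAU and up to 4 genes of smallest p per list, apart from a few genes that are not reported here. RPLP0 to RPLP2, RPL4, RPL5, RPL7, RPL11, RPL17, RPL28, RPL35, RPSA, RPS6, RPS10, RPS12, RPS26 and RPS28 were added for their role or after their values were seen. MT-RNR2 and MT-ND2 were also added after their values were seen. Members and lists were chosen with earlier results of these data known.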

Additional observations from a re-analysis of the deposited data

How the results depend on the processing

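Under alternatives that kept all 4 libraries, 70 to 78 of 82 members were called higher. Exceptions were quantile normalization (53) and a filter at 5 FPKM (76 of 78 tested). The share of all genes called higher also differed, from 6.67% (no filter on low values) to 41.1% (filter at 5 FPKM). The number called lower was 0 except after quantile normalization (1). The median log2 difference was 0.70 to 0.84 when 1 library was left out, 0.53 as TPM, 0.54 relative to recovered reads and 0.26 after quantile normalization. For the large subunit these were 0.71 to 0.87, 0.56, 0.58 and 0.28, and for the small subunit 0.67 to 0.82, 0.50, 0.51 and 0.25. The cause was not tested. The difference in share, 3.42 percentage points, was 3.98 over protein-coding genes, 2.87 in recovered reads, 2.77 without the 3 highest members and 3.07 to 3.77 when 1 library was left out. The change in subunit ratio, 1.03-fold, was 1.04 without the highest member of each subunit and 1.04 as a ratio of medians, and 1.02 to 1.04 when 1 library was left out.

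Among named genes, RPL39L, RPL36A, RPL26L1 and RPS27L turned negative as TPM (-0.119, -0.0803, -0.0688 and -0.183) and relative to recovered reads (-0.0959, -0.0521, -0.0488 and -0.113). After quantile normalization RPL39L, RPL26L1, RPS3A and NPM1 were at -0.0267, -0.0584, -0.343 and -0.255. RPS27L was at -0.0257 after further median-ratio scaling, and between -0.0385 and 0.064 when 1 library was left out (-0.0242 without shCON replicate 1, -0.0385 without shFAM49B replicate 2). RPL39L was at -0.0394 without shFAM49B replicate 2. RPL8, RPS2, RPS12, RPS26 and RPS28 were among the members that did not pass without a filter on low values, and RPS12, RPS26 and RPS28 also not without shFAM49B replicate 2. Replicate numbers are only labels here: deviations of same-numbered libraries had a correlation of -0.01 over genes, and with a replicate block 78 members were called higher, as without it. With 2 libraries per group and no separate cultures named, precision between cultures is unknown.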

Other observations

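Genes of RNA polymerase I and of 5S RNA transcription supply the ribosomal RNA. Of 15 tested, 4 were higher and 3 lower, with a median log2 difference of 0.03 (limma adjusted p under 0.05), near the 26.4% higher and 15.8% lower of all tested genes. TAF1D, a subunit of the promoter selectivity factor, rose from 6.604 and 7.37 FPKM in shCON to 14.9 and 13.2 in shFAM49B (2.01-fold). UBTF, which binds the ribosomal RNA gene promoter, measured 29.8 and 27.8 FPKM against 18.5 and 19.98 and fell by 0.56 on the log2 scale. POLR1D and GTF3A rose 1.52-fold and 1.42-fold.

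Of 14 tested genes that sense ribosomal stress or rescue stalled ribosomes, 4 were higher and 3 lower (median 0.04), also near those shares of all genes. ABCE1, which splits ribosomes for recycling, measured 44.8 and 43.7 FPKM in shCON and 28.6 and 27.3 in shFAM49B and fell by 0.64 on the log2 scale. MDM2, which RPL5 and RPL11 bind, measured 8.31 and 7.59 FPKM against 4.89 and 4.33 and fell by 0.67. RNF10, a ligase of small-subunit proteins, rose 1.31-fold, though it did not pass as TPM (0.15), relative to recovered reads (0.16), after quantile normalization (0.18) or without shCON replicate 1 (0.37).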
